A study of Mus musculus with 2 samples.

Results

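The 34 ribosome biogenesis and nucleolar genes followed here were measured by single-cell RNA sequencing in mouse hair follicle stem cells and their progeny, before wounding of the skin and 3 and 5 days after it. The genes were chosen by name for their known role, with earlier results of these data known. All 34 were found among the 32285 genes of the deposited feature table. By role they are 3 genes of rRNA transcription, 5 nucleolar proteins and chaperones, 4 proteins of the box C/D and U3 small nucleolar ribonucleoproteins (snoRNPs), 4 of the box H/ACA snoRNPs, 9 assembly factors of the small ribosomal subunit and 9 of the large subunit.

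All mice were C57B6/J and carried Sox9-CreER, an inducible Cre under control of Sox9, a gene of hair follicle stem cells, and R26-LSL-YFP, a reporter that stays on in cells in which Cre has acted and in their descendants. Phgdh fl/fl mice lose Phgdh, the enzyme of the first step of serine synthesis, in these cells, and Phgdh +/+ mice keep it. For each genotype, cells came from skin that was unwounded, at 3 days or at 5 days after wounding, from males and females pooled per the labels, and the 6 pools were marked with 6 hashtags and captured together. By their transcripts, however, cells called female were found only in the wounded +/+ pools, as given below. Ages and numbers of mice are not given in the sources used here. Unwounded cells were sorted as CD34, CD200 and YFP positive, integrin-α6 high and SCA1 negative, which selects bulge stem cells, whereas wounded cells were sorted as YFP positive and integrin-α6 high without the SCA1, CD34 and CD200 gates, so wounding and gate cannot be told apart.

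Ribosome production begins in the nucleolus, where RNA polymerase I makes a long precursor rRNA. SnoRNPs guide chemical modification and cleavage of that precursor, and a large set of assembly factors folds it with ribosomal proteins into the small and large subunits. Resting stem cells, bulge cells among them, are known for low protein synthesis, and MYC with its partner MAX is known to bind the E-box CACGTG at many genes of this pathway.

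The promoter windows that hold this E-box are shown because most of the genes were higher together after wounding. RefSeq windows of the GRCm38.p6 build, from 250 bases before to 50 bases after the start of the transcript, were matched for 29 of the 34 genes, and Fbl, Npm1, Rrs1, Rrp12 and Bop1 had none. CACGTG, which reads the same on both strands, was found for 8 of the 29 genes (27.6%), against 2187 of 27025 genes with a window (8.09%). That wider count leaves out the genes of a single chromosome, on which none of the 34 lies. In 7 of the 8 genes it lies downstream of the start, and in Nop2, a methyltransferase of large-subunit rRNA, it lies 60 bases upstream. Each 30-base stretch is given 5′ to 3′ on the strand of the gene, with the E-box in capitals.
Nop2: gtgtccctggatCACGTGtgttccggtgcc
Mybbp1a: aagtgactgtcttctgagccCACGTGtttg
Ltv1: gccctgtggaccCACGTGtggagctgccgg
Pno1: tgcgctgtacaaccacgCACGTGttcctct
Tsr1: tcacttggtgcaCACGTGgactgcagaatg
Utp20: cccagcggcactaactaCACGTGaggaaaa
Wdr43: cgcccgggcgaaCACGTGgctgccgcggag
Pes1: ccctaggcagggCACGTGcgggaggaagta
These stretches lie at chr6:125131811-125131840 (plus strand) for Nop2, chr11:72441347-72441376 (plus) for Mybbp1a, chr10:13193092-13193121 (minus) for Ltv1, chr11:17211540-17211569 (minus) for Pno1, chr11:74898092-74898121 (plus) for Tsr1, chr10:88826765-88826794 (minus) for Utp20, chr17:71616220-71616249 (plus) for Wdr43 and chr11:3963965-3963994 (plus) for Pes1. The letters are a description of these windows and say nothing of what binds there. The wider Nop2 promoter, 250 bases upstream of the start at chr6:125131633-125131882 on the plus strand, is given because its E-box alone among the 8 lies before the start.
Nop2 promoter: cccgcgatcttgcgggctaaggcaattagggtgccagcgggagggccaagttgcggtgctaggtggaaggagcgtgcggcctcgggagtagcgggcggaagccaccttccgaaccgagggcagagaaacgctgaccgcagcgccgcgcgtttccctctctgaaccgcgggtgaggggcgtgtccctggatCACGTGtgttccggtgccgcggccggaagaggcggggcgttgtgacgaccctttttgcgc

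Counting depth differed between the pools and sets the precision of what follows. Unwounded pools held 662 fl/fl cells with 5167131 UMIs and 406 +/+ cells with 3241223 UMIs. Wounded pools held between 523 and 1434 cells and between 22247350 and 70925244 UMIs. The median per cell was 7243 UMIs in unwounded fl/fl cells and 7174.5 in unwounded +/+ cells, against medians between 36277 and 45701.5 in the wounded pools. Each condition is 1 pool, so no comparison has a replicate and none was tested; the 95% intervals given are exact Poisson intervals for levels and exact conditional binomial intervals for ratios, and cover counting error only. Levels are given as CPM, the UMIs of a gene in 1000000 UMIs of its pool. They are compared between pools and, apart from shares of the summed UMIs, not between genes. Phgdh itself stood at 25.2 CPM in unwounded, 15.3 at 3 days and 20.2 at 5 days in fl/fl cells, and at 54.3, 117 and 138 CPM in +/+ cells at the same stages, lower in fl/fl cells at each stage as the labels require.

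Summed over the 34 genes, levels after wounding were more than 2-fold those before it in both genotypes with the cell filters used here. In +/+ cells this did not hold with stricter filters, as given below. In fl/fl cells the sum stood at 2577 CPM (95% interval 2533 to 2621) unwounded, 5765 CPM (5733 to 5796) at 3 days and 6276 CPM (6258 to 6295) at 5 days. In +/+ cells it stood at 2563 CPM (2508 to 2619), 5428 CPM (5409 to 5448) and 5441 CPM (5422 to 5461) at the same stages. The wounded sums were 2.24-fold (3 days) and 2.44-fold (5 days) the unwounded sum in fl/fl cells and 2.12-fold at both times in +/+ cells. Npm1, the gene with the most UMIs of the 34, held 33.1%, 34.5% and 36.6% of their UMIs in unwounded, 3-day and 5-day fl/fl cells, and Ncl held between 17.6% and 19.8% in the 6 pools. Without both genes, the log2 ratios of wounded over unwounded sums were 1.05 at 3 days and 1.11 at 5 days in fl/fl cells and 0.98 and 0.96 in +/+ cells, so the higher sum does not rest on the pair alone.

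Wounded cells also held more UMIs per cell in all, and the 34 genes were more than proportionally higher. A wounded fl/fl cell held on average 245.2 UMIs of the 34 genes at 3 days and 310.4 at 5 days, against 20.11 in an unwounded fl/fl cell, which is 12.2-fold and 15.4-fold, while all UMIs per cell were 5.45-fold and 6.34-fold. In +/+ cells the averages were 230.4 and 219.2 UMIs, against 20.46 unwounded, or 11.3-fold and 10.7-fold, beside 5.32-fold and 5.05-fold for all UMIs.

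The higher level was spread over most cells rather than held by a few. Per 10000 UMIs of a cell, the median cell held 22.09 UMIs of the 34 genes in unwounded, 49.58 in 3-day and 49.17 in 5-day fl/fl pools, and 20.97, 44.21 and 44.23 in the +/+ pools. The ranges overlapped, with 5th to 95th percentiles of 10.53 to 102.8 at 3 days and 20.61 to 111.8 at 5 days, against 11.04 to 35.93 unwounded, in fl/fl cells. Of the wounded fl/fl cells, 66.5% at 3 days and 73.6% at 5 days lay above the 95th percentile of unwounded fl/fl cells, and of the wounded +/+ cells 64.1% and 67.6% lay above that of unwounded +/+ cells. With every cell thinned to 3000 UMIs, which left out between 11 and 24 cells a pool, those shares were 62.2% and 69.8% in fl/fl cells and 54.2% at both times in +/+ cells. A minority stayed low: 12.8% (3 days) and 6.21% (5 days) of wounded fl/fl cells and 12.6% and 7.32% of wounded +/+ cells were below the unwounded median of their genotype.

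**Figure D1:**
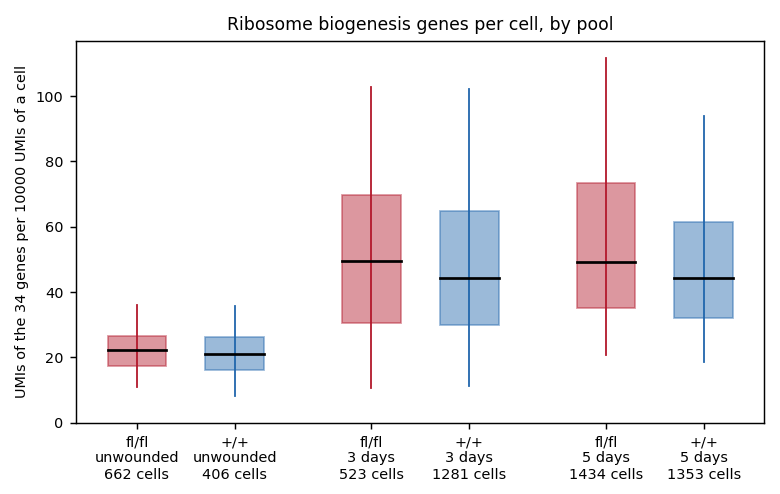
UMIs of the 34 genes per 10000 UMIs of a cell (vertical axis), for the cells of each of the 6 pools (horizontal axis, unwounded, 3 and 5 days, fl/fl left of +/+). The median is 49.58 at 3 days in fl/fl cells and 44.21 in +/+ cells, against 22.09 and 20.97 in unwounded cells. All wounded 95th percentiles lie far above the unwounded ones. The 5th percentile lies below the unwounded one only in fl/fl cells at 3 days (10.53 against 11.04).

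Gene by gene, each of the 34 was higher in wounded than in unwounded cells in all 4 comparisons (2 times, 2 genotypes). The interval of the ratio lay above 0 on the log2 scale for 33 genes at 3 days and 34 at 5 days in fl/fl cells, and for 33 and 32 in +/+ cells. At 3 days in fl/fl cells, 27 of the 34 were 1.5-fold or more higher, against 20.6% of the genes expressed at 5 CPM or more on average, and at 5 days 30 were, against 20.7%. In +/+ cells 28 of the 34 were at 3 days, against 20.1% of all genes, and 27 at 5 days, against 18.9%. None was 1.5-fold lower, while 40.2% (3 days) and 40.5% (5 days) of all genes were in fl/fl cells and 40.7% and 41.6% in +/+ cells. At 2-fold or more, 16 of the 34 at 3 days (12.3% of all genes) and 19 at 5 days (12.4%) were higher in fl/fl cells, and 16 at 3 days (11.8%) and 16 at 5 days (10.8%) in +/+ cells. The median log2 ratio of the 34 was 0.92 at 3 days and 1.06 at 5 days in fl/fl cells and 0.90 and 0.98 in +/+ cells, beside medians of all genes of -0.31, -0.29, -0.29 and -0.34. Scaling by TMM factors moves every wound ratio up by between 0.53 and 0.60, which sets the median of all genes between 0.23 and 0.27 and that of the 34 between 1.45 and 1.62, so levels are best read against the other genes. A set of 25 genes was 1.5-fold or more higher in all 4 comparisons, 3 (Nop10, Wdr75 and Utp20) in none, and 6 (Nop14, Gar1, Rrp1b, Wdr12, Polr1a and Polr1b) in some.

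**Figure D2:**
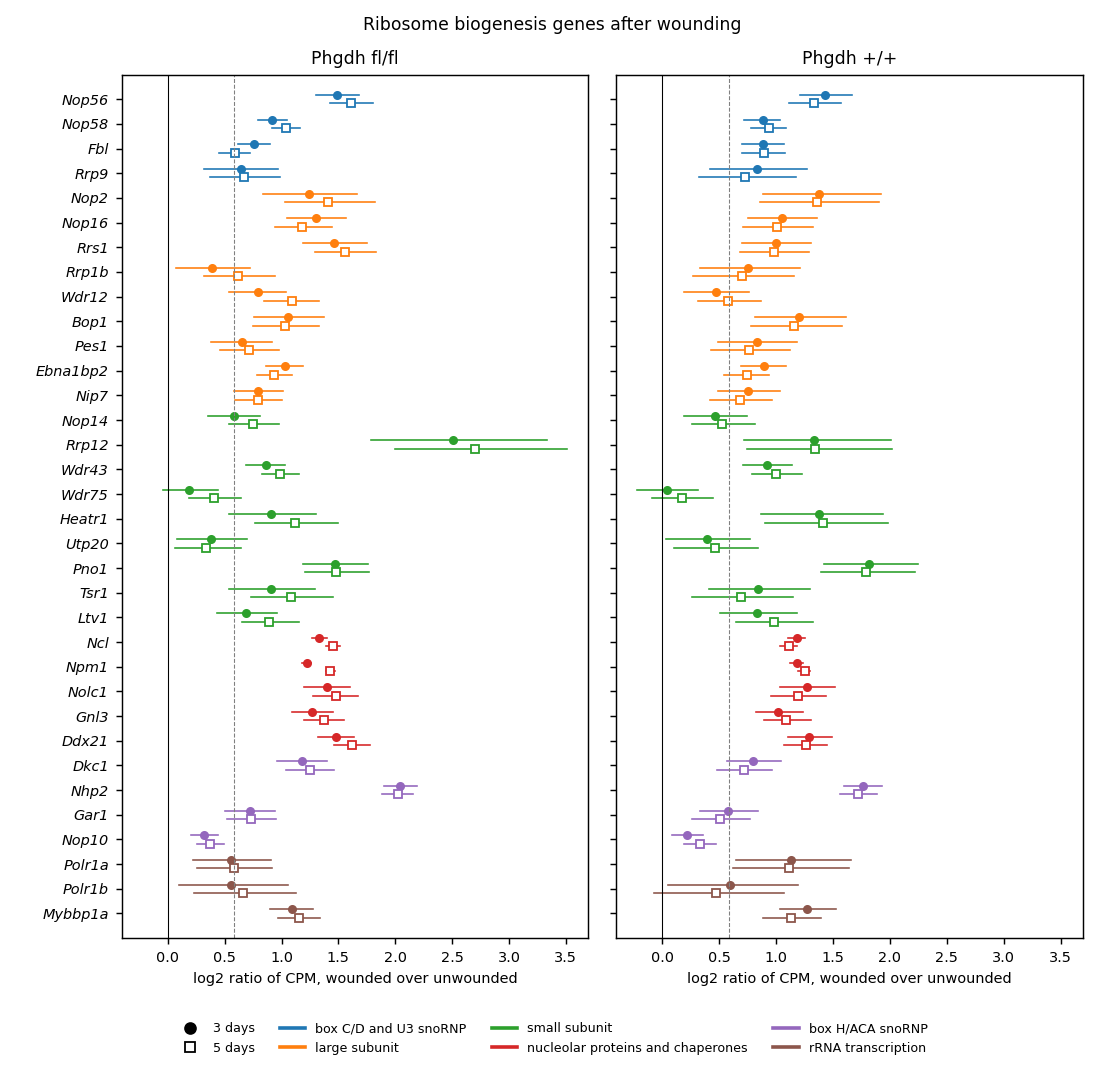
Log2 ratio of CPM, wounded over unwounded (horizontal axis), for each of the 34 genes by role (vertical axis), at 3 and 5 days in fl/fl cells (left panel) and +/+ cells (right panel), with 95% counting intervals and a dashed line at 1.5-fold. All points lie right of 0, from 0.04 for Wdr75 in +/+ cells to 2.70 for Rrp12 in fl/fl cells.

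Among the 3 genes of rRNA transcription the median log2 ratio was 0.56 at 3 days and 0.66 at 5 days in fl/fl cells and 1.13 and 1.11 in +/+ cells, a difference that was not tested. Polr1a, the largest subunit of RNA polymerase I, had 15.7 CPM in unwounded, 23.1 in 3-day and 23.4 in 5-day fl/fl cells, and 10.8, 23.7 and 23.3 CPM in +/+ cells. In +/+ cells its log2 ratio was 1.13 at 3 days and 1.11 at 5 days, against 0.56 and 0.58 in fl/fl cells, whose unwounded level was the higher one. The unwounded levels rest on 81 UMIs in fl/fl cells and 35 in +/+ cells. The interval of the difference in log2 ratio, fl/fl less +/+, spans 0 at 3 days (-0.58, -1.17 to 0.02) and 5 days (-0.53, -1.11 to 0.05). Polr1b, a further catalytic-core subunit, stood at 8.52 (unwounded), 12.6 (3 days) and 13.5 CPM (5 days) in fl/fl cells and 8.64, 13.0 and 12.0 CPM in +/+ cells, with log2 ratios between 0.47 and 0.66. Mybbp1a, a nucleolar protein tied to rRNA synthesis and one of the 8 genes with an E-box, reached 106 CPM at 3 days and 111 at 5 days, against 49.9 unwounded, in fl/fl cells, and 100 and 90.6, against 41.3, in +/+ cells. It was the only gene of this group 2-fold or more higher in all 4 comparisons, with log2 ratios of 1.09 and 1.15 in fl/fl cells and 1.27 and 1.13 in +/+ cells.

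All 5 nucleolar proteins and chaperones were 2-fold or more higher at both times in both genotypes. Npm1, nucleophosmin, a histone and assembly chaperone of the nucleolus, had 854 CPM in unwounded, 1989 in 3-day and 2299 in 5-day fl/fl cells, and 823, 1865 and 1951 CPM in +/+ cells. Its wounded and unwounded intervals lie far apart, with log2 ratios of 1.22 (1.18 to 1.26) at 3 days and 1.43 (1.39 to 1.47) at 5 days in fl/fl cells, and 1.18 (1.12 to 1.24) and 1.25 (1.19 to 1.30) in +/+ cells. Ncl, nucleolin, which binds precursor rRNA, stood at 453 (unwounded), 1142 (3 days) and 1237 CPM (5 days) in fl/fl cells and 469.9, 1061 and 1012 CPM in +/+ cells. Ddx21, an RNA helicase that links transcription by RNA polymerase I with rRNA processing, had 64.6 CPM in unwounded, 179.9 in 3-day and 198 in 5-day fl/fl cells, and 71.0, 174 and 169.7 CPM in +/+ cells and the largest ratios of the group, 1.48 and 1.62 in fl/fl cells and 1.29 and 1.26 in +/+ cells. Nolc1, a chaperone of snoRNPs, reached 113 CPM at 3 days and 119 at 5 days, against 43.0 unwounded, in fl/fl cells, and 105 and 99.1, against 43.5, in +/+ cells. Gnl3, nucleostemin, a nucleolar GTPase known from stem and cancer cells, had 53.4 CPM in unwounded, 129 in 3-day and 138 in 5-day fl/fl cells, and 58.9, 119.8 and 126 CPM in +/+ cells. The group's median log2 ratio was 1.33 at 3 days and 1.45 at 5 days in fl/fl cells and 1.18 and 1.19 in +/+ cells, and in each of the 5 genes the ratio was higher in fl/fl than in +/+ cells at both times, a difference that was not tested.

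Box C/D snoRNPs place 2′-O-methyl groups on rRNA, and the U3 snoRNP of this family directs early cleavage. All 4 of their proteins were 1.5-fold or more higher in each comparison. Nop56, one of the paired scaffold proteins, had 48.0 CPM in unwounded, 135 in 3-day and 146 in 5-day fl/fl cells, and 49.1, 133 and 124 CPM in +/+ cells. Its log2 ratios of 1.49 (1.30 to 1.68) at 3 days and 1.61 (1.43 to 1.80) at 5 days in fl/fl cells and 1.43 (1.21 to 1.67) and 1.33 (1.11 to 1.57) in +/+ cells exceed those of its partner Nop58. Nop58 stood at 107 (unwounded), 203 (3 days) and 219.7 CPM (5 days) in fl/fl cells and 106, 194 and 202 CPM in +/+ cells, with ratios between 0.88 and 1.04. Fbl, fibrillarin, the methyltransferase of the particle, had 91.2 CPM in unwounded, 154 in 3-day and 137 in 5-day fl/fl cells, and 75.0, 138 and 139 CPM in +/+ cells. Its ratio in fl/fl cells was 0.76 at 3 days and 0.59 at 5 days, on an unwounded level above that of +/+ cells. Rrp9, a protein particular to the U3 snoRNP, stood at 17.6 (unwounded), 27.4 (3 days) and 28.0 CPM (5 days) in fl/fl cells and 15.4, 27.4 and 25.6 CPM in +/+ cells.

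The box H/ACA snoRNPs, which convert uridine to pseudouridine, were uneven: their 4 core proteins act in 1 particle, and their ratios lay far apart. Nhp2, an RNA-binding core protein, had 81.3 CPM in unwounded, 335 in 3-day and 329 in 5-day fl/fl cells, and 92.6, 314 and 306 CPM in +/+ cells. Its log2 ratios were 2.04 (1.90 to 2.19) at 3 days and 2.02 (1.88 to 2.16) at 5 days in fl/fl cells and 1.76 (1.60 to 1.93) and 1.72 (1.56 to 1.89) in +/+ cells. Nop10, its small partner, stood at 130.4 (unwounded), 163 (3 days) and 169 CPM (5 days) in fl/fl cells and 131, 153 and 165 CPM in +/+ cells, with ratios of only 0.32 and 0.37 in fl/fl cells and 0.22 and 0.33 in +/+ cells. Dkc1, dyskerin, the pseudouridine synthase, had 37.4 CPM in unwounded, 84.6 in 3-day and 88.6 in 5-day fl/fl cells, and 47.2, 82.3 and 77.6 CPM in +/+ cells. Between these lay Gar1, which binds the synthase, at 37.4 (unwounded), 61.5 (3 days) and 62.1 CPM (5 days) in fl/fl cells and 41.0, 61.4 and 58.3 CPM in +/+ cells. In this group 3 of 4 genes passed 1.5-fold at each time in fl/fl cells and 2 of 4 in +/+ cells, Gar1 making the difference with ratios of 0.72 and 0.73 against 0.58 and 0.51, a difference that was not tested.

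Assembly factors of the small subunit ranged from the largest to the smallest ratios of all. Rrp12, a factor in late steps and export of the pre-small subunit, had 3.10 CPM in unwounded, 17.6 in 3-day and 20.1 in 5-day fl/fl cells, and 6.79, 17.1 and 17.2 CPM in +/+ cells. The unwounded levels rest on 16 UMIs in fl/fl cells and 22 in +/+ cells, and the log2 ratios of 2.51 (1.79 to 3.33) and 2.70 (2.0 to 3.51) in fl/fl cells at 3 and 5 days, and of 1.33 and 1.34 in +/+ cells, are imprecise. Pno1, an RNA-binding protein needed for the last cleavage at the end of small-subunit rRNA and another of the genes with an E-box, stood at 21.3 (unwounded), 58.9 (3 days) and 59.4 CPM (5 days) in fl/fl cells and 15.7, 55.5 and 54.3 CPM in +/+ cells. Its ratio was 1.47 (1.19 to 1.76) at 3 days in fl/fl cells and 1.82 (1.42 to 2.25) at 3 days in +/+ cells, in which it was the largest of the 34. Heatr1, which joins the earliest complex on the precursor, had 12.8 CPM in unwounded, 24.0 in 3-day and 27.8 in 5-day fl/fl cells, and 9.56, 24.9 and 25.4 CPM in +/+ cells, and Wdr43 of the same complex had 62.9 (unwounded), 114 (3 days) and 125 CPM (5 days) in fl/fl cells and 55.5, 105 and 111 CPM in +/+ cells. Both were 1.5-fold or more higher throughout. Wdr75, of the same early complex again, stood at 33.9 (unwounded), 38.7 (3 days) and 45.0 CPM (5 days) in fl/fl cells and 37.9, 39.0 and 42.7 CPM in +/+ cells, and its interval at 3 days in +/+ cells spans 0 (0.04, -0.22 to 0.31). Utp20, a large scaffold protein and also one of the genes with an E-box, had 19.9 CPM in unwounded, 26.0 in 3-day and 25.3 in 5-day fl/fl cells, and 20.1, 26.2 and 27.6 CPM in +/+ cells, with ratios between 0.34 and 0.46.

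The remaining small-subunit factors lay between. Nop14, a component of the early processing complex, stood at 34.4 (unwounded), 51.4 (3 days) and 58.1 CPM (5 days) in fl/fl cells and 35.8, 49.3 and 51.5 CPM in +/+ cells. Tsr1, a GTPase-like factor of late maturation, had 13.2 CPM in unwounded, 24.7 in 3-day and 27.9 in 5-day fl/fl cells, and 13.9, 24.9 and 22.4 CPM in +/+ cells. Ltv1, released from the pre-small subunit in the cytoplasm, reached 43.1 CPM at 3 days and 49.6 at 5 days, against 26.7 unwounded, in fl/fl cells, and 43.4 and 48.0, against 24.4, in +/+ cells. Of the 9 factors, 6 at 3 days and 7 at 5 days passed 1.5-fold in fl/fl cells and 6 at both times in +/+ cells, with median log2 ratios of 0.86, 0.99, 0.84 and 0.98.

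Of the 9 large-subunit factors, 8 at 3 days and 9 at 5 days passed 1.5-fold in fl/fl cells, and 8 at both times in +/+ cells. Bop1, Pes1 and Wdr12 form the PeBoW complex, which is needed for processing of large-subunit rRNA, and differed among themselves. Bop1 had 19.5 CPM in unwounded, 40.8 in 3-day and 40.0 in 5-day fl/fl cells, and 17.0, 38.9 and 38.0 CPM in +/+ cells. Pes1 stood at 25.2 (unwounded), 39.4 (3 days) and 41.2 CPM (5 days) in fl/fl cells and 22.5, 39.9 and 38.3 CPM in +/+ cells. Wdr12 reached 49.8 CPM at 3 days and 61.3 at 5 days, against 28.8 unwounded, in fl/fl cells, and 46.5 and 50.4, against 33.6, in +/+ cells, so that in +/+ cells its log2 ratios of 0.47 and 0.58 lay well below the 1.20 and 1.16 of Bop1. Nop2, the methyltransferase with the upstream E-box, had 11.0 CPM in unwounded, 26.0 in 3-day and 29.4 in 5-day fl/fl cells, and 10.2, 26.5 and 26.1 CPM in +/+ cells, with ratios between 1.24 and 1.41. Rrs1, which brings the 5S particle into the pre-large subunit, stood at 22.4 (unwounded), 61.8 (3 days) and 66.0 CPM (5 days) in fl/fl cells and 28.7, 57.4 and 56.5 CPM in +/+ cells, and Nop16, an early large-subunit factor, had 27.1 CPM in unwounded, 66.9 in 3-day and 61.5 in 5-day fl/fl cells, and 28.7, 59.2 and 57.8 CPM in +/+ cells. Both were 2-fold or more higher in fl/fl cells at each time. Ebna1bp2, an early-acting scaffold protein, reached 133 CPM at 3 days and 124 at 5 days, against 65.0 unwounded, in fl/fl cells, and 123 and 111, against 66.6, in +/+ cells. Nip7, which acts in maturation of large-subunit rRNA, stood at 39.3 (unwounded), 68.0 (3 days) and 67.9 CPM (5 days) in fl/fl cells and 37.3, 62.9 and 59.9 CPM in +/+ cells. Rrp1b, a nucleolar protein of the pre-large subunit, had 18.2 CPM in unwounded, 23.8 in 3-day and 28.0 in 5-day fl/fl cells, and 14.2, 23.9 and 23.0 CPM in +/+ cells and the smallest ratio of the group, 0.39 at 3 days in fl/fl cells.

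Genes with an E-box in their window had median ratios close to those of genes without one in fl/fl cells. The median log2 ratio of the 8 with one was 0.89 at 3 days and 1.04 at 5 days in fl/fl cells, against 0.91 and 1.04 for the 21 without. In +/+ cells the medians were 0.88 and 0.99 with the E-box, against 0.88 and 0.74 without.

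Other genes of the pathway, from lists that hold none of the 34, had smaller median ratios than the 34. Of all genes, 20.6% (3 days) and 20.7% (5 days) were 1.5-fold or more higher in fl/fl cells, and 20.1% and 18.9% in +/+ cells. Those lower made up 40.2% and 40.5% in fl/fl cells and 40.7% and 41.6% in +/+ cells. Of 47 other small-subunit factors, 18 at 3 days and 24 at 5 days were 1.5-fold or more higher in fl/fl cells and 18 at both times in +/+ cells, none lower, with medians of 0.53, 0.60, 0.41 and 0.38. Of 54 other large-subunit factors, 27 and 30 were in fl/fl cells and 25 and 24 in +/+ cells, with medians of 0.58, 0.71, 0.50 and 0.50. Bysl, a small-subunit factor, had 10.5 CPM unwounded, 32.0 at 3 days and 33.5 at 5 days in fl/fl cells, and 10.5, 29.7 and 27.8 CPM in +/+ cells. Eif6, which keeps the immature large subunit from joining, stood at 137, 458 and 403 CPM at those stages in fl/fl cells and at 148, 438 and 382 CPM in +/+ cells. Of 19 snoRNP assembly factors tested, 9 and 7 were higher and 2 and 2 lower in fl/fl cells, and 7 and 4 higher and 2 and 1 lower in +/+ cells. The lower ones include Znhit6, a box C/D assembly factor, at 60.6, 25.6 and 29.9 CPM in fl/fl cells and 58.9, 25.1 and 26.6 CPM in +/+ cells from unwounded to 5 days. Of 13 exosome subunits tested, 5 were higher at each time in fl/fl cells and 2 in +/+ cells, the latter near the share of all genes.

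The other machinery of RNA polymerase I went both ways, with more genes higher than lower. Of 18 of its other genes tested, 7 were 1.5-fold or more higher and 2 lower at 3 days and 5 and 3 at 5 days in fl/fl cells, and 5 and 2 at both times in +/+ cells, with medians between 0.15 and 0.30. The shares of all genes ran from 18.9% to 20.7% higher and from 40.2% to 41.6% lower in these comparisons. Ubtf, the factor that opens rDNA for transcription, stood at 73.3 CPM unwounded, 89.0 at 3 days and 81.1 at 5 days in fl/fl cells, and at 73.1, 84.9 and 77.8 CPM in +/+ cells. Rrn3, which recruits the polymerase, had 21.1, 26.4 and 26.8 CPM in fl/fl cells and 17.9, 25.9 and 26.4 CPM in +/+ cells at these stages. Polr1d, a subunit shared with RNA polymerase III, was the highest of the list by ratio, at 194, 524 and 567 CPM in fl/fl cells and 215, 522 and 507 CPM in +/+ cells. Taf1b of this list was lower, with log2 ratios of -0.84 at 3 days in fl/fl cells and -1.09 and -0.97 at 3 and 5 days in +/+ cells. Myc stood at 30, 24.0 and 34 CPM in fl/fl cells and at 21.3, 27.9 and 41.0 CPM in +/+ cells. Its log2 ratio over unwounded cells was -0.32 at 3 days and 0.18 at 5 days in fl/fl cells and 0.39 and 0.95 in +/+ cells. Mxd4, a MAX partner known to oppose MYC, had 149.8, 24.4 and 26.1 CPM in fl/fl cells and 153, 29.4 and 29.7 CPM in +/+ cells, whereas Mxd1 of the same family stood at 9.68, 53.2 and 50.9 CPM in fl/fl cells and at 22.2, 76.2 and 38.3 CPM in +/+ cells.

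Between the wound times the genes hardly differed. At 5 days over 3 days none of the 34 was 1.5-fold higher or lower in fl/fl cells, against 7.88% of all genes, or in +/+ cells, against 4.68%. Their log2 ratios lay between -0.17 and 0.30 in fl/fl cells, 27 above 0, and between -0.15 and 0.14 in +/+ cells, 13 above 0. The sum was 6276 CPM at 5 days and 5765 CPM at 3 days in fl/fl cells, a log2 ratio of 0.12 (0.11 to 0.13). It was 5441 and 5428 CPM in +/+ cells, a ratio of 0.00. Cluster 7, a cluster led by Tnfaip6, Ereg and Areg, held 120 of the fl/fl cells at 5 days and 9 at 3 days, and without it the fl/fl sums were 5751 and 5667 CPM, a log2 ratio of 0.02.

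Cells were grouped by clustering without the 34 genes and without the other pathway genes, and clusters were named only where markers set for a cell type were raised. Bulge stem cell-like clusters held 597 of the 662 unwounded fl/fl cells and 340 of the 406 unwounded +/+ cells. Their summed level of the 34 genes was 2267 CPM in fl/fl cells and 2260 CPM in +/+ cells. Wounded +/+ cells in these clusters, 39 at 3 days and 26 at 5 days, stood at 2848 and 2715 CPM, and their G2/M genes summed to 2161 and 698 CPM. Cluster 13, unnamed although 9 of the 12 bulge markers were raised in it, held 94 fl/fl cells at 3 days and 62 at 5 days, with 5417 and 3668 CPM of the 34 genes. In +/+ mice it held 197 and 152 cells, with 5202 and 3945 CPM.

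Among wounded cells the summed level ran from 1520 CPM in the lowest cluster to 9878 CPM in the highest. Cycling-like cells had 8090 CPM in fl/fl mice and 7633 CPM in +/+ mice at 3 days, and 7793 and 6937 CPM at 5 days. Against unwounded bulge-like cells, all 34 genes were 1.5-fold or more higher in cycling-like fl/fl cells at 3 days, beside 25.0% of all genes, and 32 were at 5 days (23.9%), at 3 days in +/+ cells (24.6%) and at 5 days in +/+ cells (23.4%). Pno1 had 71.5 CPM in cycling-like +/+ cells at 3 days and 10.1 CPM in unwounded bulge-like +/+ cells, a log2 ratio of 2.83, and Nop10 had the smallest ratio, 0.51. Cluster 4, led by the DNA replication genes Cdt1, Hells and Dtl, stood at 8881 CPM in fl/fl mice and 8906 CPM in +/+ mice at 3 days, and the matching levels were 7370 and 7121 CPM at 5 days, in 25 to 47 cells a pool.

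The wound edge-like class joins cluster 1, of 429 cells with 9 of the 12 markers raised and Mmp10 and Mmp13 among its leading genes, and cluster 5, of 536 cells with 3 of the 12 raised and Krt6b and Sprr1b among its leading genes. These cells had 4939 CPM in fl/fl mice and 5216 CPM in +/+ mice at 3 days and 5782 and 5275 CPM at 5 days. At 3 days the G2/M genes of this class summed to 942 CPM (fl/fl) and 1114 CPM (+/+), against 217 CPM (fl/fl) and 207 CPM (+/+) in unwounded bulge-like cells. In cycling-like cells they summed to 3853 and 4193 CPM. The part of cycling in the level was not tested. Over unwounded bulge-like cells, 22 of the 34 genes at 3 days and 27 at 5 days were 1.5-fold or more higher in fl/fl cells (21.3% and 22.0% of all genes) and 27 and 28 in +/+ cells (21.7% and 20.3%). Leaving the cycling-like clusters out of the pools gave summed log2 ratios over unwounded of 1.10 at 3 days and 1.29 at 5 days in fl/fl cells and 0.97 and 1.01 in +/+ cells, beside 1.16, 1.28, 1.08 and 1.09 with them. Cells with G2/M transcripts remain in what is left: in cluster 12 at 3 days these genes summed to 4988 CPM (fl/fl) and 3427 CPM (+/+).

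Cluster 7 had the highest level. Of its leading genes, Ereg and Areg encode ligands of the EGF receptor. It stood at 9878 CPM in 120 fl/fl cells and 9068 CPM in 49 +/+ cells at 5 days. All 34 genes were 1.5-fold or more higher in fl/fl cells of this cluster than in unwounded bulge-like fl/fl cells, beside 25.6% of all genes, with a median log2 ratio of 1.74. The ratio ran from 0.71 for Nop10 to 3.82 for Rrp12. Nhp2 had 433 CPM there and 63.3 CPM in unwounded bulge-like cells, and Ncl had 2215 CPM and 379 CPM. The median cell of cluster 7 also held the most RNA, 73138 UMIs in fl/fl and 72056 in +/+ cells, and its G2/M genes summed to 2926 and 3196 CPM; the part of depth and cycle in the level was not tested.

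**Figure D3:**
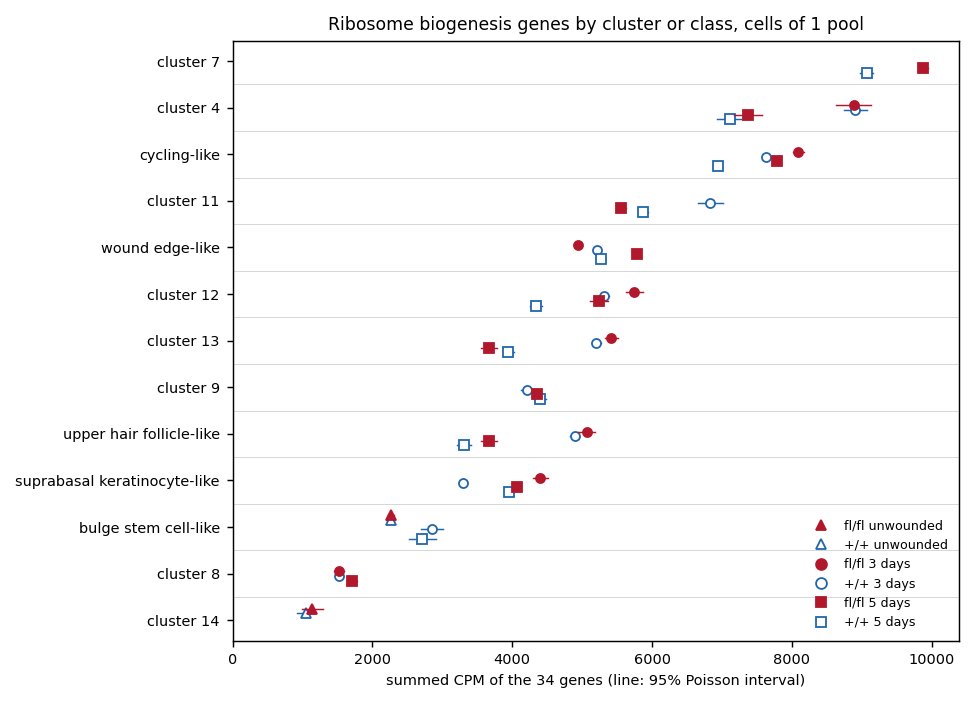
Summed CPM of the 34 genes (horizontal axis, from 0, with 95% Poisson intervals) in each cluster or named class (vertical axis), each point being the cells of 1 pool. Cluster 7 lies highest, at 9878 CPM in fl/fl cells at 5 days, and cluster 8 and unwounded cells lie lowest.

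Suprabasal keratinocyte-like cells had 4404 CPM (27 cells) in fl/fl and 3301 CPM (100 cells) in +/+ mice at 3 days, and 4065 and 3958 CPM at 5 days. Of the 34 genes, 21 were 1.5-fold or more above unwounded bulge-like cells in fl/fl cells at 5 days (17.6% of all genes), and 15 at 3 days (18.0%) and 19 at 5 days (17.2%) in +/+ cells. Upper hair follicle-like cells stood at 5063 CPM in fl/fl mice and 4894 CPM in +/+ mice at 3 days, and the matching levels were 3671 and 3309 CPM at 5 days.

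Cluster 8, led by Lce3 genes, Cnfn and Cdsn of the cornified envelope, lay below unwounded bulge-like cells in CPM, though not in UMIs per cell. It stood at 1523 CPM in 26 fl/fl cells and 1520 CPM in 62 +/+ cells at 3 days and at 1703 CPM in 22 fl/fl cells at 5 days. Per cell it held 76.3 (fl/fl) and 85.6 (+/+) UMIs of the 34 genes at 3 days, against 16.9 and 17.1 in unwounded bulge-like cells. Its median cell held 44742 and 54887 UMIs of all genes, against 7347 and 7404. At 3 days in +/+ cells, 25 of the 34 genes were 1.5-fold or more lower than in unwounded bulge-like +/+ cells, beside 62.3% of all genes, and 3 were higher, beside 17.6%. The median log2 ratio of the 34 was -0.86, beside -1.10 for all genes, so the lower level is shared with most genes. Utp20 (-2.13), Polr1b (-2.02) and Wdr12 (-1.97) were lowest by log2 ratio. Pno1 went the other way with 25.2 CPM in cluster 8 and 10.1 CPM in unwounded bulge-like cells, as did Nhp2 with 166 and 66.3 CPM.

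**Figure D4:**
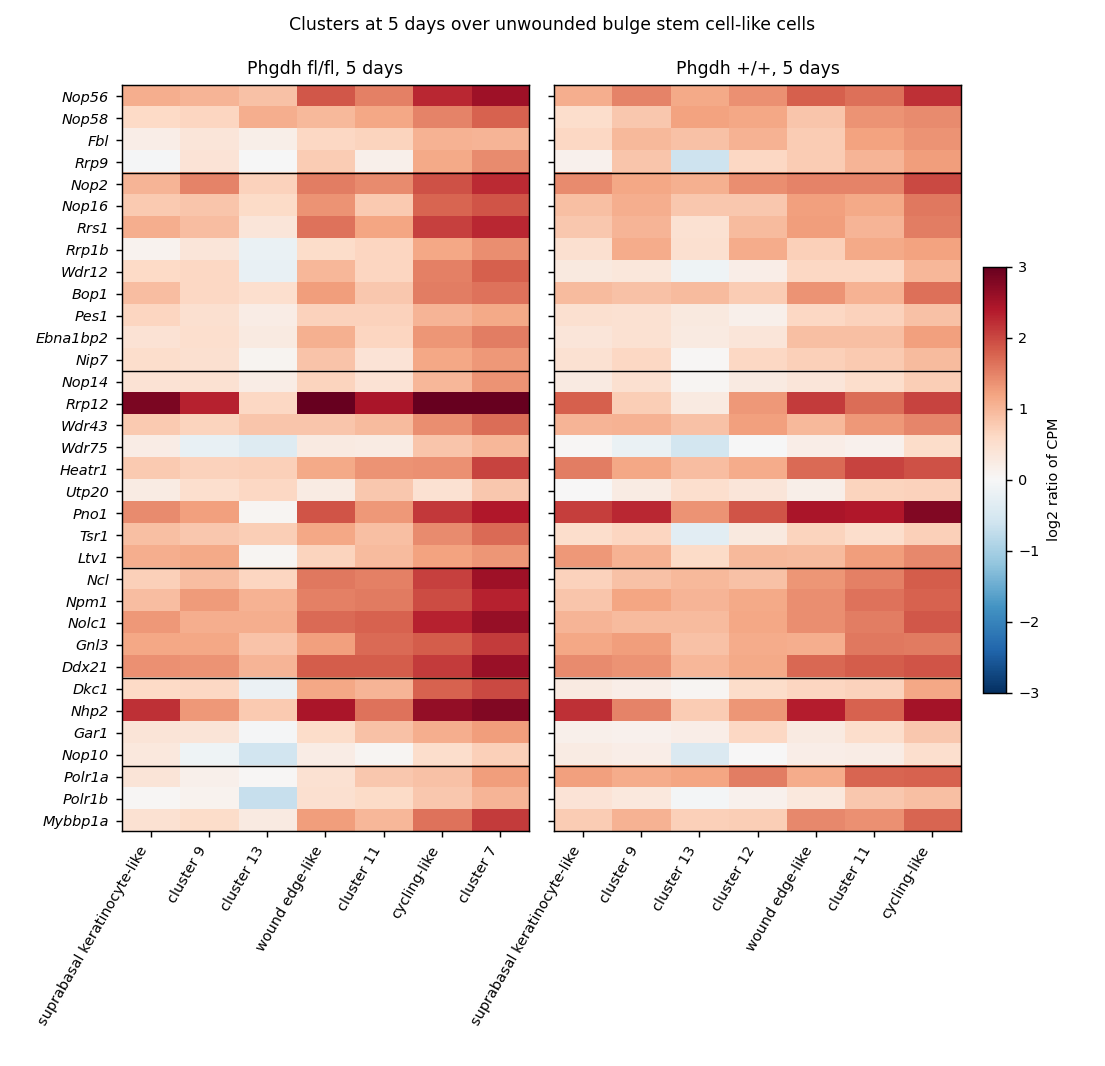
Log2 ratio of CPM of clusters and classes at 5 days over unwounded bulge stem cell-like cells (colour, from -3 to 3) for the 34 genes (rows), in fl/fl cells (left panel) and +/+ cells (right panel). Cluster 7 in fl/fl cells has all 34 genes above 1.5-fold and its smallest ratio, 0.71, at Nop10.

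The unwounded pools were not uniform either. In each pool the 5 cells with most UMIs of the 34 genes, none of them bulge-like, held 16.1% of those UMIs in fl/fl cells and 22.9% in +/+ cells, beside 5.32% and 8.86% of all UMIs. Cluster 14, unnamed, held 42 of the fl/fl cells (6.344%) and 51 of the +/+ cells (12.56%), with 1135 and 1047 CPM of the 34 genes, a median of 4608.5 and 4720 UMIs a cell, 8.45% and 8.38% mitochondrial UMIs and 2.50% and 1.68% ribosomal protein UMIs. Bulge-like cells had 19.0% and 18.3% ribosomal protein UMIs and 4.90% and 4.71% mitochondrial UMIs. All 8 melanocyte markers were raised in cluster 14, with Dct, Pmel and Tyrp1 among its leading genes. It stayed unnamed because only 7.8% of its cells held at least 2 of these markers. With the unwounded pools limited to bulge-like cells, the summed log2 ratios were 1.35 at 3 days and 1.47 at 5 days in fl/fl cells and 1.26 and 1.27 in +/+ cells, and without cluster 14 they were 1.13, 1.25, 1.02 and 1.02. Endothelial, macrophage and T cell marker sums were below 10 CPM in unwounded cells of both genotypes. The 8 fibroblast markers had a sum of 103 to 299 CPM after wounding, against 1785 CPM in unwounded fl/fl and 1724 CPM in unwounded +/+ cells, where 3 of the 8 reached 5 CPM and the defining genes Dcn and Lum were at 0. The 8 neutrophil markers, of which 2 reached 5 CPM in every pool, summed to 780.5 CPM at 3 days and 391 CPM at 5 days in fl/fl cells and to 991 and 296 CPM in +/+ cells, against 29.8 CPM in unwounded fl/fl and 35.2 CPM in unwounded +/+ cells. The 8 Langerhans cell markers summed to 118 to 171 CPM after wounding, against 209 CPM in unwounded fl/fl and 186 CPM in unwounded +/+ cells, where Cd207 was at 0. The 8 melanocyte markers had a sum of 17 to 34.6 CPM after wounding, against 516 CPM in unwounded fl/fl and 596 CPM in unwounded +/+ cells, where 2 and 1 of the 8 reached 5 CPM. Immediate early genes known to be induced by dissociation summed to 12502 CPM in unwounded fl/fl and 8887 CPM in unwounded +/+ cells, against 4515 to 5832 CPM in the wounded pools, and the part of these lists in the ratios was not tested.

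In fl/fl against +/+ cells of the same stage, none of the genes tested differed by 1.5-fold. The count was 0 of 33 genes tested in unwounded cells, against 6.49% of all genes either way, 0 of 34 at 3 days, against 1.37%, and 0 of 34 at 5 days, against 2.85%. Smaller differences lay mostly to 1 side at 5 days. The median log2 ratio of fl/fl over +/+ was -0.01 in unwounded cells, 0.06 at 3 days and 0.16 at 5 days, beside -0.04, -0.02 and 0.01 for all genes. Of the genes tested, 15 of 33 were higher in fl/fl cells when unwounded, 23 of 34 at 3 days and 32 of 34 at 5 days, beside 42.7%, 43.0% and 52.7% of all genes. At 5 days the interval lay above 0 for 27 genes and below it for Utp20 (-0.12, -0.22 to -0.02), and Fbl was at -0.02.

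**Figure D5:**
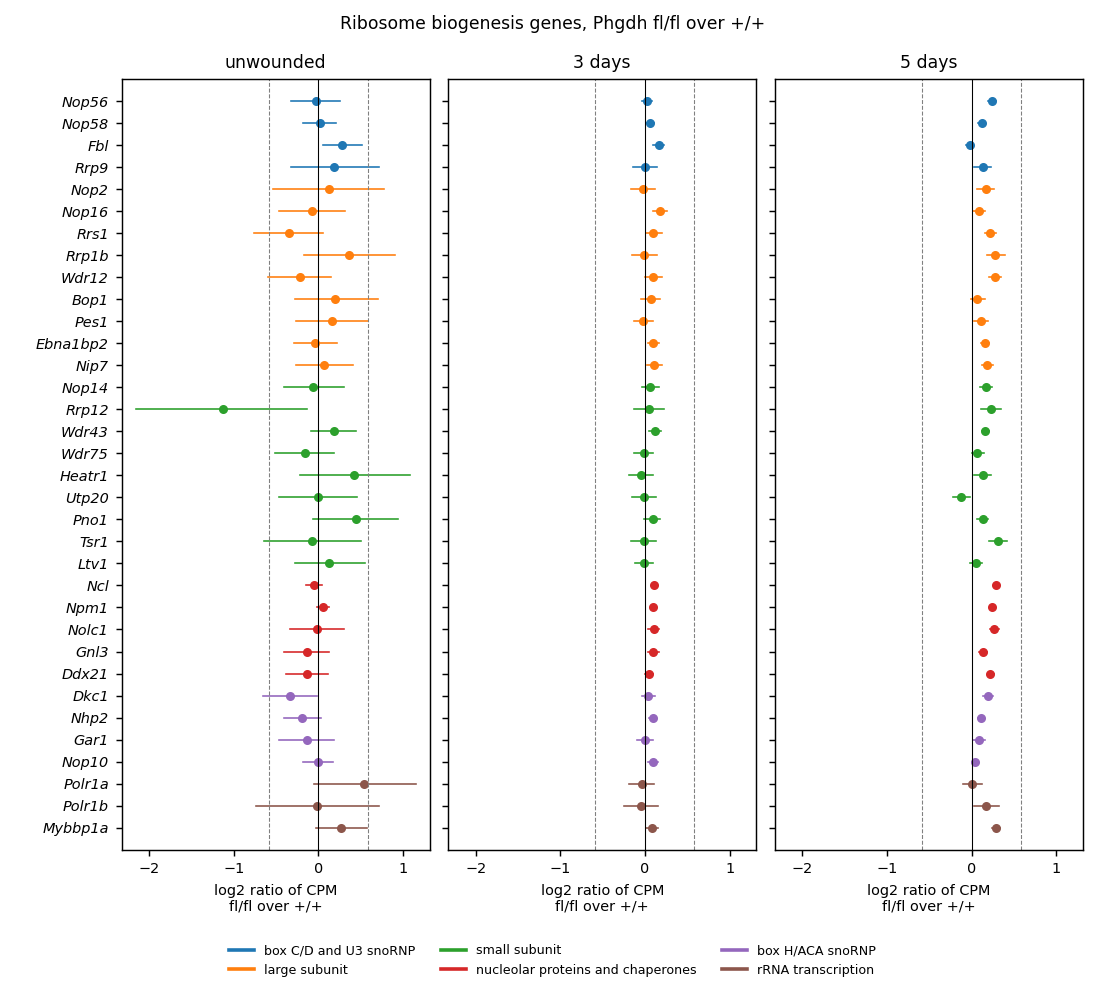
Log2 ratio of CPM, fl/fl over +/+ (horizontal axis), for each of the 34 genes (vertical axis), in unwounded cells and at 3 and 5 days (panels left to right), with 95% counting intervals. At 5 days 32 of 34 points lie right of 0, none beyond 1.5-fold, and the unwounded intervals are wide.

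At 5 days the largest ratio was that of Tsr1, with 27.9 CPM in fl/fl cells, against 22.4 CPM in +/+ cells, a log2 ratio of 0.31 (0.21 to 0.42). Ncl had 1237 and 1012 CPM (0.29, 0.27 to 0.31) and Npm1 2299 and 1951 CPM (0.24, 0.23 to 0.25). Without this pair the log2 ratio of the summed levels was 0.14, against 0.21 with it. Among the others of their group the ratio was 0.27 for Nolc1, 0.22 for Ddx21 and 0.14 for Gnl3. In rRNA transcription it was 0.29 for Mybbp1a, 0.17 for Polr1b and 0.01 for Polr1a. In the box C/D group it was 0.24 for Nop56, 0.13 for Rrp9 and 0.12 for Nop58, and in the box H/ACA group it was 0.19 for Dkc1, 0.11 for Nhp2, 0.09 for Gar1 and 0.04 for Nop10. Small-subunit factors other than Tsr1 and Utp20 lay between 0.05 for Ltv1 and 0.23 for Rrp12, and large-subunit factors between 0.07 for Bop1 and 0.28 for Wdr12 and Rrp1b.

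In unwounded cells the ratios were less precise. Dkc1 stood at 37.4 CPM in fl/fl cells, against 47.2 CPM in +/+ cells (-0.34, -0.65 to -0.02), the only interval below 0 among the 33 tested genes, and Fbl at 91.2 and 75.0 CPM (0.28, 0.06 to 0.51), the only one above. Polr1a had the largest ratio, with 15.7 and 10.8 CPM (0.54, -0.05 to 1.15). Rrp12, left out of the count because its mean was under 5 CPM, had 3.10 CPM in fl/fl cells and 6.79 CPM in +/+ cells, a log2 ratio of -1.13 (-2.16 to -0.14). Within unwounded bulge-like cells 3 of 33 genes tested passed 1.5-fold, all higher in fl/fl, beside 2.29% of all genes: Polr1a with 14.8 and 8.53 CPM (0.80, 0.08 to 1.56), Pno1 with 16.4 and 10.1 CPM (0.70, 0.04 to 1.41) and Heatr1 with 11.7 and 7.75 CPM (0.59, -0.18 to 1.41). The sums of the 34 there were 2267 CPM in fl/fl cells and 2260 CPM in +/+ cells, a log2 ratio of 0.00.

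The summed difference at 5 days, 6276 CPM in fl/fl cells, against 5441 CPM in +/+ cells (log2 0.21, 0.20 to 0.21), went with differences in the make-up of the pools. Cells called female by X- and Y-linked transcripts made up 31.1% of the +/+ pool at 3 days, 23.7% of the +/+ pool at 5 days and 0 cells of every fl/fl pool and of the unwounded +/+ pool. No call could be made for 378 of 662 unwounded fl/fl cells, 197 of 406 unwounded +/+ cells and 78 to 142 cells of each wounded pool. Without the female cells the sums were 6276 and 5683 CPM at 5 days (0.14) and 5765 and 5764 CPM at 3 days (0.00), beside 5765 and 5428 CPM (0.09) with them. Cluster 7 held 120 of 1434 fl/fl and 49 of 1353 +/+ cells at 5 days, and without it the sums were 5751 and 5177 CPM (0.15).

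Within clusters the direction was not uniform. Cycling-like cells had higher sums in fl/fl mice at both times, with log2 ratios of 0.08 at 3 days (28 of 34 genes higher) and 0.17 at 5 days (29 of 34). Wound edge-like cells had -0.08 at 3 days (7 of 34 higher) and 0.13 at 5 days (29 of 34). Suprabasal-like cells at 5 days had 0.04 (21 of 34), cluster 9 had -0.01 and cluster 11, led by Cxcl9, Cxcl10 and Thbs1, had -0.08 (6 of 34). Cluster 13 had 0.06 at 3 days (23 of 34) and -0.10 at 5 days (8 of 33 tested). Across the 34 genes, the log2 ratio of wounded over unwounded was larger in fl/fl than in +/+ cells for 20 genes at 3 days (median difference 0.05) and 23 at 5 days (median difference 0.17), and the interval of the difference lay above 0 for 5 and 9 genes and below 0 for 0 and 1.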

How the data were processed

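The authors deposited a matrix of UMI counts per gene, hashtag and barcode from 1 capture of 3′ libraries (reads of 28 and 90 bp). Per the submitters' processing notes, Cell Ranger 7.1.0, the mm10 build and Seurat 4.3.0 were used. The counts are not normalized. Cells were barcodes of 1000 UMIs and 500 genes or more, with mitochondrial UMIs no higher than 10% (6900 barcodes). HTODemux (Seurat 5.3.0, R 4.3.3, quantile 0.99) gave 5659 singlets, 503 doublets and 738 negatives, and only singlets were used. Hashtag names that read WT and cKO were taken as Phgdh +/+ and fl/fl. Scrublet called 0 doublets by its automatic threshold, so doublets within a hashtag remain and an alternative removed the 126 highest scores.

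Counts were summed per pool and scaled to CPM. Ratios had exact conditional binomial intervals, genes entered a comparison at a mean of at least 5 CPM, and a gene was counted at 1.5-fold, since 1 pool per condition allows no test. Free RNA, profiled in barcodes of 100 to 399 UMIs, amounted to 3.28% of UMIs in unwounded fl/fl cells, 3.21% in unwounded +/+ cells and 0.517% to 0.635% after wounding, and was left in. Clustering used scanpy 1.11.5 (Python 3.11.15; 2000 variable genes, 30 components, Leiden resolution 1). A marker was raised at 10 CPM and 2-fold over the other cells. A cluster was named when at least 3 markers of a type were raised, with at least 2 of the type's markers among its 10 leading genes or 2 of every 3 on its list raised. No other type could have more markers among those 10, and most of the cells had to hold at least 2 raised markers. Cluster 13 stayed unnamed since a fibroblast marker (Postn), and no bulge marker, is among its 10 leading genes. Female cells had at least 2 Xist UMIs and at most 1 Y-linked UMI. TMM factors came from edgeR 4.0.16. Intervals used scipy 1.17.1.

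The 34 genes and the other lists were chosen with earlier results of these data known, and the share rule for naming clusters and the sex calls were set after seeing the data. All 34 genes are named with their levels. For each other list and comparison, up to 4 genes with the largest absolute log2 ratio at a mean of at least 20 CPM were picked. Only some of the picked genes are named here, while Myc, Ubtf and Rrn3 always are.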

Additional observations from a re-analysis of the deposited data

Results flagged for a closer look

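A set of 5 genes had log2 ratios of opposite sign in the groups compared, with intervals on opposite sides of 0; none of these differences was tested, and each pool is a single sample. From 3 to 5 days, Nop56 had a log2 ratio of 0.12 in fl/fl cells and -0.10 in +/+ cells. Ncl had 0.12 in fl/fl cells and -0.07 in +/+ cells. Nolc1 had 0.08 in fl/fl cells and -0.08 in +/+ cells. Tsr1 had 0.18 in fl/fl cells and -0.15 in +/+ cells. Dkc1 differed by stage: its log2 ratio of fl/fl over +/+ was -0.34 in unwounded cells and 0.19 at 5 days. All of these ratios are below 1.5-fold. Signs from 3 to 5 days were not stable among the 34 genes. Without cluster 7 the ratios of 8 of the 34 changed sign in fl/fl cells. Without the cells called female, 6 of the 34 did in +/+ cells.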

How the results depend on the processing

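A total of 18 alternatives were tried, of which leaving out cluster 7, cluster 8 or cluster 14 and limiting unwounded pools to bulge-like cells were chosen after seeing the data. Apart from the fold of 2, the number of the 34 genes 1.5-fold or more higher than in unwounded cells stayed between 24 and 34 at 3 days and 26 and 34 at 5 days in fl/fl cells, and between 25 and 34 and 23 and 34 in +/+ cells. With a fold of 2 the numbers were 16 and 19 in fl/fl cells and 16 and 16 in +/+ cells. None passed 1.5-fold between 5 and 3 days, or between genotypes in wounded cells, under any of them. In unwounded cells the number past 1.5-fold between genotypes was 0 in the values reported. It was 1 with at least 2000 UMIs a cell, at most 20% mitochondrial UMIs, the rule of 20 hashtag UMIs and 70%, Scrublet removal, TMM factors, a total without ribosomal protein and mitochondrial genes, or no minimum CPM. It was 2 with at most 5% mitochondrial UMIs or without cluster 14, and 3 with bulge-like cells alone. The cause was not tested.

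The log2 ratio of Phgdh at 3 days over unwounded in fl/fl cells, -0.71 with all cells, was 0.60 with unwounded bulge-like cells alone and 0.17 with equal weight per cell. In unwounded cells, fl/fl over +/+, Mxd1 was 0.20 and Sesn2 0.00 under the hashtag rule, against -1.20 and -0.71. The median genotype ratio of the 34 at 5 days stayed between 0.11 and 0.18, and at 3 days between -0.03 and 0.09. The summed log2 ratios over unwounded also moved. In +/+ cells at 3 and 5 days they were 0.86 and 0.88 with at most 5% mitochondrial UMIs. With at least 2000 UMIs a cell they were 0.93 and 0.90, and with TMM factors 1.64 and 1.69. In fl/fl cells the matching ratios were 1.11 and 1.28, 1.12 and 1.25, and 1.69 and 1.85. Unwounded depth limits genes of few UMIs, such as Rrp12. No paired analysis was possible because each condition is 1 pool.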

Other observations

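Genes of translation, the process that ribosomes serve, were also higher after wounding. Of 38 initiation and elongation genes, 22 at 3 days and 23 at 5 days were 1.5-fold or more higher in fl/fl cells and 20 and 21 in +/+ cells, 1 being lower in each comparison, with median log2 ratios of 0.73, 0.66, 0.73 and 0.64. Beside them, 18.9% to 20.7% of all genes were higher and 40.2% to 41.6% lower across these comparisons. Eif5a, which helps ribosomes through difficult stretches, had 426 CPM unwounded, 1381 at 3 days and 1285 at 5 days in fl/fl cells, and 437, 1304 and 1207 CPM in +/+ cells. The lower one was Eif4a2, an RNA helicase of initiation, with 169, 47.0 and 50.7 CPM in fl/fl cells and 155, 52.6 and 51.6 CPM in +/+ cells. Between genotypes, 0 of the 38 differed by 1.5-fold at any stage. Few of all genes did either: 6.49% in unwounded cells, 1.37% at 3 days and 2.85% at 5 days.

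Genes that carry snoRNAs in their introns and targets of p53, which responds to disturbed ribosome assembly are given here beside all genes. Of all genes, 20.6% and 20.7% were 1.5-fold or more higher and 40.2% and 40.5% lower at 3 and 5 days in fl/fl cells. In +/+ cells 20.1% and 18.9% were higher and 40.7% and 41.6% lower. Of 17 snoRNA host genes, 6 and 7 were 1.5-fold or more higher and 2 lower in fl/fl cells at 3 and 5 days, and 7 and 8 higher and 2 lower in +/+ cells. Snhg3 had 35.4, 108 and 133 CPM from unwounded to 5 days in fl/fl cells and 43.2, 115 and 114 CPM in +/+ cells. Of the p53 targets tested, 5 and 5 were higher and 5 and 6 lower in fl/fl cells, and 6 and 6 higher and 4 and 5 lower in +/+ cells. Trp53inp1 had 184, 23.3 and 15.1 CPM in fl/fl cells and 141, 26.7 and 21.0 CPM in +/+ cells, whereas Plk2 had 20.9, 67.5 and 117 CPM in fl/fl cells and 19.4, 75.1 and 102 CPM in +/+ cells. In the MYC network, Mlxip was lower after wounding, with 61.7, 14.7 and 12.1 CPM in fl/fl cells and 54.9, 14.9 and 15.1 CPM in +/+ cells, as was Mga with 72.4, 27.4 and 31.5 CPM in fl/fl cells and 84.2, 26.8 and 31.2 CPM in +/+ cells.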
